A study of Mus musculus with 8 samples.

Results

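The urocortin and corticotropin-releasing hormone (CRH) system was followed in N134 cells, a mouse line from a pancreatic beta cell tumor of C57BL/6 background. Its 7 genes, taken by symbol from a table of 23309 genes, are the peptide ligands Ucn3, Ucn, Ucn2 and Crh, the receptors Crhr1 and Crhr2, and the binding protein Crhbp. RNA of 8 libraries was sequenced. Libraries 5 to 8 came from cells with forced expression of GFP-miR-431 (microRNA-431 with a GFP marker, called miR-431 here), and libraries 1 to 4 from control cells with GFP-miR-LacZ in its place (miR-LacZ). Both groups share the cell line, the growth medium with serum and the GFP marker, and the labels name no promoter for the constructs, no clone and no separate cultures. P-values given further on therefore rest on library-to-library spread alone, part or all of which may be technical. Values are FPKM, a fragment count scaled to transcript length and library size. A group is given as its mean ± SD (n = 4).

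The 4 ligands are small amidated peptides cut from larger precursors, and the 2 receptors are class B1 receptors that couple to the Gs protein and raise cyclic AMP (cAMP). CRH acts mainly through CRHR1, urocortin 1 (Ucn) binds both receptors, and urocortins 2 and 3 act on CRHR2. The binding protein captures CRH and urocortin 1 but not urocortin 3. In the mouse islet, urocortin 3 is a marker of mature beta cells, is released with insulin, and acts on CRHR2 of delta cells, which answer with somatostatin. CRHR1 is found on beta cells themselves, where its activation adds to glucose-driven insulin release.

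The overexpressed microRNA gives rise to a pair of mature strands. They are shown because the comparison turns on them, with the seed (bases 2 to 8) in capitals, from RefSeq on GRCm38.p6.
mmu-miR-431-5p: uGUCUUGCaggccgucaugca
mmu-miR-431-3p: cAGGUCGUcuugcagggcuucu
The letters complementary to these seeds, GCAAGAC and ACGACCT, were looked for in 3′ UTRs of GENCODE M21. None of the 7 genes held either match in the 1 transcript per gene that was searched, whose 3′ UTRs ran from 89 bases (Ucn) to 1229 bases (Crhr2). Among 10750 tested genes with a 3′ UTR, 6.54% held GCAAGAC and 1.42% held ACGACCT. The absence of a match says only that these letters are not in these stretches.

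Promoter windows of Ucn3, Ucn, Crhr1 and Crhr2 are given next, from 250 bases before to 50 after the start site, 5′ to 3′ on the gene's strand (RefSeq, GRCm38.p6). Capitals mark matches, on either strand, to any of 3 motifs. TGACGTCA is the cAMP response element. The TATA box was searched as TATAAA. A homeodomain core was searched as TAATTA.
Ucn3, chr13:3945300-3945599, minus strand: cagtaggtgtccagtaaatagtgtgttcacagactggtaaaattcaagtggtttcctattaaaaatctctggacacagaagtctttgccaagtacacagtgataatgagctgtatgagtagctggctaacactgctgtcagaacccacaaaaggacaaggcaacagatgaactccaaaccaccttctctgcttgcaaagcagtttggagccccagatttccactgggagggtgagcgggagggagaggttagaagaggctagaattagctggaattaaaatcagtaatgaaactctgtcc
Ucn, chr5:31138846-31139145, minus strand: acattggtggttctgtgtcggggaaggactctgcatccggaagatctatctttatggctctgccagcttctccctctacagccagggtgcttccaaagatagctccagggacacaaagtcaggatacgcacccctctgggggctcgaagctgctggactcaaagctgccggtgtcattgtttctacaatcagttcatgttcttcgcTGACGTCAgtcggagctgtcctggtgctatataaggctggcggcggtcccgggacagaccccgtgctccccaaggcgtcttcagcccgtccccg
Crhr1, chr11:104132531-104132830, plus strand: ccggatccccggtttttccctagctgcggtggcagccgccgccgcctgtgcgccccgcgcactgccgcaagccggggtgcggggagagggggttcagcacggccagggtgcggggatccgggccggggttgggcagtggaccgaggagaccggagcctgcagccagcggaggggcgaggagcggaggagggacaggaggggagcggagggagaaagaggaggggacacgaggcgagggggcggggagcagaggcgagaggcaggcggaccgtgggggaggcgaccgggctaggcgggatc
Crhr2, chr6:55132967-55133266, minus strand: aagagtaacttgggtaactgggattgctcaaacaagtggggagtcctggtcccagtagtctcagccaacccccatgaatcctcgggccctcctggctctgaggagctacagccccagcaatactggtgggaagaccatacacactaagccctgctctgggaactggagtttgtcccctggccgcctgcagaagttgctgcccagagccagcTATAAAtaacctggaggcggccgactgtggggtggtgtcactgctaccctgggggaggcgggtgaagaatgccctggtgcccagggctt

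The windows differ in base composition. GC content was 44.7% with 1 CpG for Ucn3, 57.3% with 15 CpG for Ucn, 59.0% with 5 CpG for Crhr2 and 75% with 31 CpG for Crhr1, where the median of 32851 promoters was 52.7% with 7 CpG. The Ucn window holds the cAMP response element with its first base at −44, a motif found in 1.79% of promoters. The Crhr2 window holds TATAAA at −39, found in 13.6%. None of the 3 motifs is in the Ucn3 or Crhr1 window, and TAATTA, found in 5.29% of promoters, is in none of the 4. The window of Crhbp, searched but not shown, holds TATAAA at +31. No window was available for Crh or Ucn2.

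The 7 genes were selected on the FPKM difference of Ucn3 between the groups, which was already known, and as members of its system. The differences of all 7 are therefore given as a description, with no test. Of the 7 genes, 3 (Ucn3, Crhr1 and Crhr2) reached 1 FPKM in at least 4 libraries, the level needed to enter the comparison of 11807 genes. With 4 libraries per group, a gene can enter through 1 group alone. Such a gene can be called only as higher in that group, so its call is a description. The genes named below to which this applies are marked. Over all tested genes, 29.3% had a limma adjusted p below 0.05, 15.4% higher and 13.8% lower in miR-431, which is the background for the counts of other genes given here. The groups did not overlap in 3671 of the 11807 tested genes (31.1%), 1892 of them higher and 1779 lower in miR-431. Lack of overlap in a tested gene, where given here, is to be read against that share. In bulk RNA, fewer cells of a type and less RNA per cell cannot be told apart.

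The overexpressed gene Mir431 was listed at 0 in the 4 miR-LacZ libraries and between 18114 and 37769 FPKM in the other 4. Dab2ip, the RasGAP gene in the title of the series, stood at 74.4% of its control level, with overlapping groups (limma adjusted p = 0.0236). Its call was lost without miR-LacZ 1 or 2 or miR-431 5 or 8, without libraries 1 and 5 together, and with the running median over 31 neighbouring genes removed. Ins2, an insulin gene that defines mouse beta cells, stood at 10547 to 26753 FPKM over the 8 libraries. Libraries miR-LacZ 1 and miR-431 5 stood apart in their lowest values. For values under 0.1 FPKM, 18.5% to 23.8% of genes shared the commonest ratio (within 0.02 on the log2 scale) in pairs of the other 6 libraries. That share was 1.78% to 2.41% where 1 of these 2 was paired with 1 of the 6. Between miR-LacZ 1 and miR-431 5 themselves it was 8.79%, below the range within the other 6. The labels do not pair these 2 libraries. The table holds no read counts, so depth is unknown.

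Ucn3 (chromosome 13, 3939933 to 3944595, mm9) was the only one of the 4 ligands above 1 FPKM in any of the 8 libraries. It stood at 2.82, 2.70, 1.13 and 0.263 FPKM in miR-LacZ 1 to 4, and at 28.5, 43.3, 44.6 and 32.6 FPKM in miR-431 5 to 8. Every miR-431 library lay above every miR-LacZ library, and miR-LacZ 4 held by far the least. The group means were 1.73 ± 1.24 and 37.3 ± 7.95 FPKM, a ratio of 21.5 between the means. The spread was wide among the controls, with a coefficient of variation of 71.9% against 21.3% in miR-431. With 1 added to FPKM before taking log2, which makes changes of low genes look smaller, the difference was 3.92 (SE 0.323). Counting Ucn3 itself, 6 of the 11807 tested genes had a difference at least as high. It was 2.95 within the pair of miR-431 5 and miR-LacZ 1, and 4.25 in the other 6 libraries.

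The other ligands were at or near 0 in both groups. Crh was listed at 0 in all 8 libraries. Ucn (chromosome 5, 31440361 to 31441268, mm9) was listed at 0 in 7 libraries and at 0.0649 FPKM in miR-431 7. Ucn2 (chromosome 9, 108888207 to 108889209, mm9) was read at a low and even level, at 0.292, 0.299, 0.295 and 0.193 FPKM in miR-LacZ and 0.353, 0.301, 0.291 and 0.196 FPKM in miR-431. Its groups overlapped, with means of 0.270 ± 0.0514 and 0.285 ± 0.0654 FPKM. Of the FPKM of all 4 ligands added together, Ucn3 held 57.7% to 90.6% in miR-LacZ and 98.8% to 99.4% in miR-431.

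Both receptors were lower in miR-431. Crhr1 (chromosome 11, 103994195 to 104036832, mm9), the receptor for CRH and urocortin 1, stood at 29.5, 34.96, 37.5 and 33.7 FPKM in miR-LacZ 1 to 4 and at 17.4, 20.8, 25.8 and 17.7 FPKM in miR-431 5 to 8. The groups did not overlap. The means were 33.9 ± 3.33 and 20.4 ± 3.89 FPKM, which put miR-431 at 60.2% of the control level (log2 difference −0.72, SE 0.129). The difference was −0.73 within the pair of miR-431 5 and miR-LacZ 1 and −0.71 in the other 6 libraries.

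Crhr2 (chromosome 6, 55040041 to 55082966, mm9), the receptor of urocortins 2 and 3, stood at 4.55, 3.78, 8.15 and 6.92 FPKM in miR-LacZ and at 1.48, 1.10, 1.20 and 1.41 FPKM in miR-431. The groups did not overlap, and the control libraries were the more spread (coefficient of variation 34.7% against 13.6%). The means were 5.85 ± 2.03 and 1.30 ± 0.177 FPKM, which is 22.2% of the control level (log2 difference −1.53, SE 0.190). The difference was −1.16 within the pair of miR-431 5 and miR-LacZ 1 and −1.65 in the other 6 libraries. The table gives 1 value per gene, so transcripts of Crhr2 that start at different sites are not separated.

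Crhbp (chromosome 13, 96201330 to 96214786, mm9), whose product holds CRH and urocortin 1 away from their receptors, was barely read. It lay between 0.0175 and 0.117 FPKM in miR-LacZ and between 0.0355 and 0.0873 FPKM in miR-431, with overlapping groups and means of 0.0886 ± 0.0476 and 0.0711 ± 0.0239 FPKM.

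**Figure D1:**
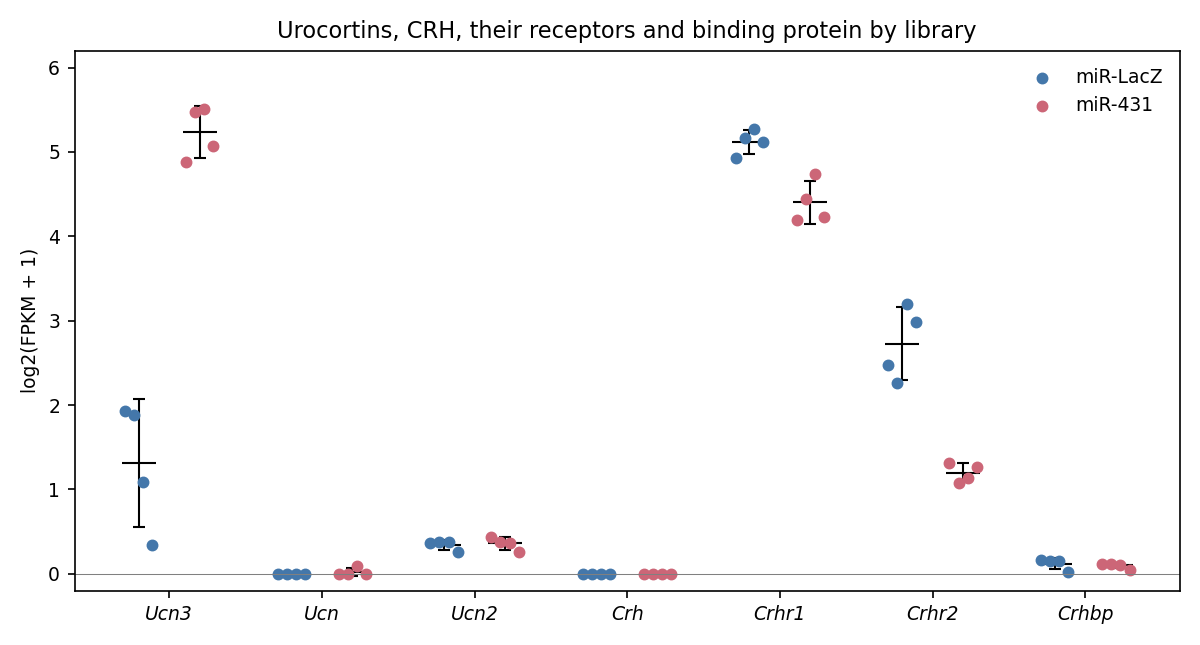
Level of each of the 7 genes as log2(FPKM + 1), with 1 point per library, 4 miR-LacZ (blue) and 4 miR-431 (red) libraries; horizontal lines are means and bars are SD. Ucn3 is higher and Crhr1 and Crhr2 are lower in every miR-431 library, while Ucn, Ucn2, Crh and Crhbp lie near 0 in both groups.

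The order of levels, which FPKM allows between genes, was not the same in the 2 groups. In miR-LacZ, Crhr1 came first, then Crhr2 and Ucn3, then Ucn2 and Crhbp, with Ucn and Crh listed at 0. Ucn3 and Ucn2 overlapped there, since miR-LacZ 4 held less Ucn3 (0.263 FPKM) than 3 of the control libraries held Ucn2, but the other neighbours in this order did not overlap. In miR-431, Ucn3 came first (28.5 FPKM or more), above Crhr1 (25.8 FPKM or less), Crhr2, Ucn2 and Crhbp, and none of these neighbours overlapped. Among all 23309 genes, 52.3% had a lower mean than Ucn3 in miR-LacZ and 88.4% in miR-431. For Crhr1 these shares were 87.1% and 80.2%, and for Crhr2 62.0% and 50.8%.

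Ratios within a library do not depend on how the libraries were scaled to each other. Crhr1 exceeded Crhr2 in all 8 libraries, by ratios of 4.603 to 9.24 in miR-LacZ and 11.7 to 21.5 in miR-431. The receptors thus differed in their share as well as their level, with Crhr1 making up 82.2% to 90.2% of their summed FPKM in miR-LacZ and 92.1% to 95.5% in miR-431. The ratio of Ucn3 to its receptor Crhr2 ran from 0.0380 to 0.714 in miR-LacZ and from 19.2 to 39.2 in miR-431. Per 1000 FPKM of Ins2, whose product is stored with urocortin 3, Ucn3 stood at 0.00982 to 0.183 in miR-LacZ and 1.49 to 4.23 in miR-431. All of these ratios were free of overlap between the groups, as follows in part from the differences given above.

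**Figure D2:**
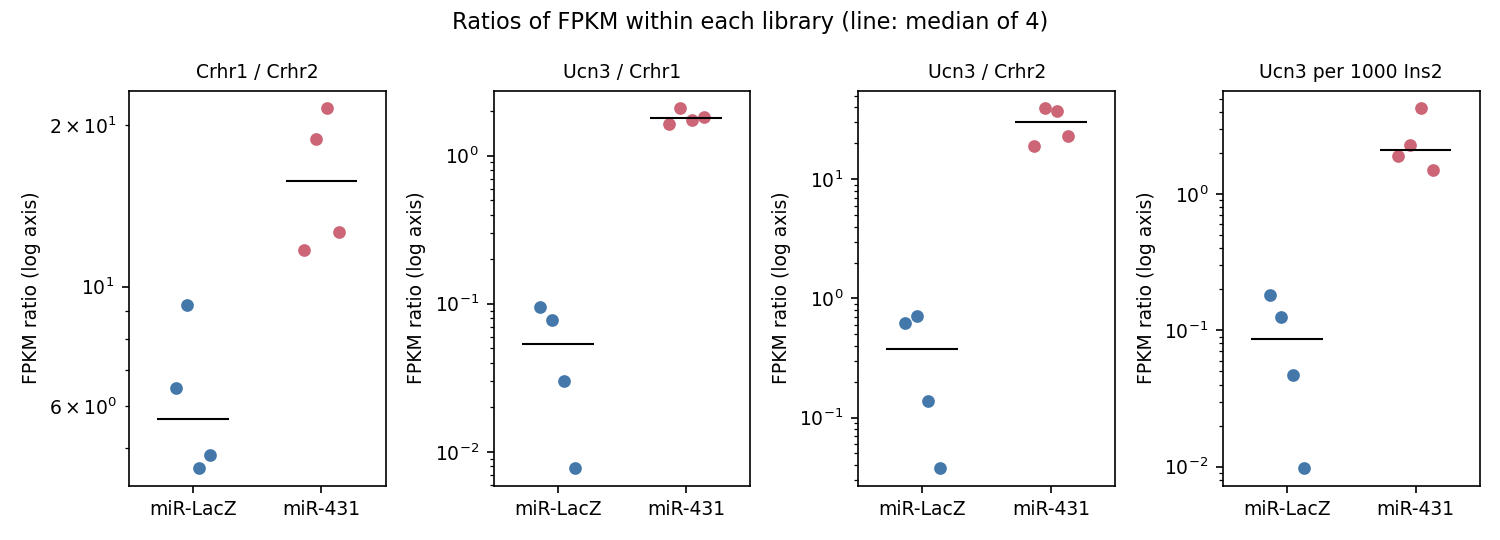
Ratios of FPKM between 2 genes within each library, on log axes, with 1 point per library and a line at the median of 4. Crhr1 to Crhr2, Ucn3 to Crhr1, Ucn3 to Crhr2 and Ucn3 per 1000 FPKM of Ins2 are all higher in every miR-431 library than in any miR-LacZ library.

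Ucn3 lies near the proximal end of chromosome 13, in a stretch where many but not all genes were also higher in miR-431. Of the 30 tested genes nearest to it in order, 4 before and 26 after, spread over 10.3 Mb, 16 rose and 0 fell at a limma adjusted p below 0.05 (22 and 0 at an unadjusted p below 0.05), and 27 had a difference above 0. Their median was 0.36, beside −0.01 for all tested genes. Net1, a gene for a guanine nucleotide exchange factor of RhoA, whose start lies 58.1 kb from that of Ucn3, rose from 16.2 ± 2.22 to 24.3 ± 2.13 FPKM (log2 difference 0.56, limma adjusted p = 0.00456). Asb13 rose from 23.2 ± 4.29 to 36.2 ± 1.75 FPKM (0.64, limma adjusted p = 0.00542). On the other side Akr1c14, an aldo-keto reductase gene, had the largest difference of the 30, from 1.23 ± 0.634 to 4.89 ± 1.25 FPKM (1.42, limma adjusted p = 0.00146). Its neighbour Akr1c13 was at 89.1 ± 14.6 FPKM in miR-LacZ and 80.3 ± 21.3 FPKM in miR-431 (−0.17, limma adjusted p = 0.518). The tested genes that follow, Akr1c19, Marcksl1-ps4, Akr1c12 and Akr1e1, stood at −0.27, 0.06, −0.04 and 0.09 and were not called. With the running median over 31 genes removed, the difference of Ucn3 was 3.54, and Net1 and Asb13 no longer passed (limma adjusted p = 0.131 and 0.126).

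**Figure D3:**
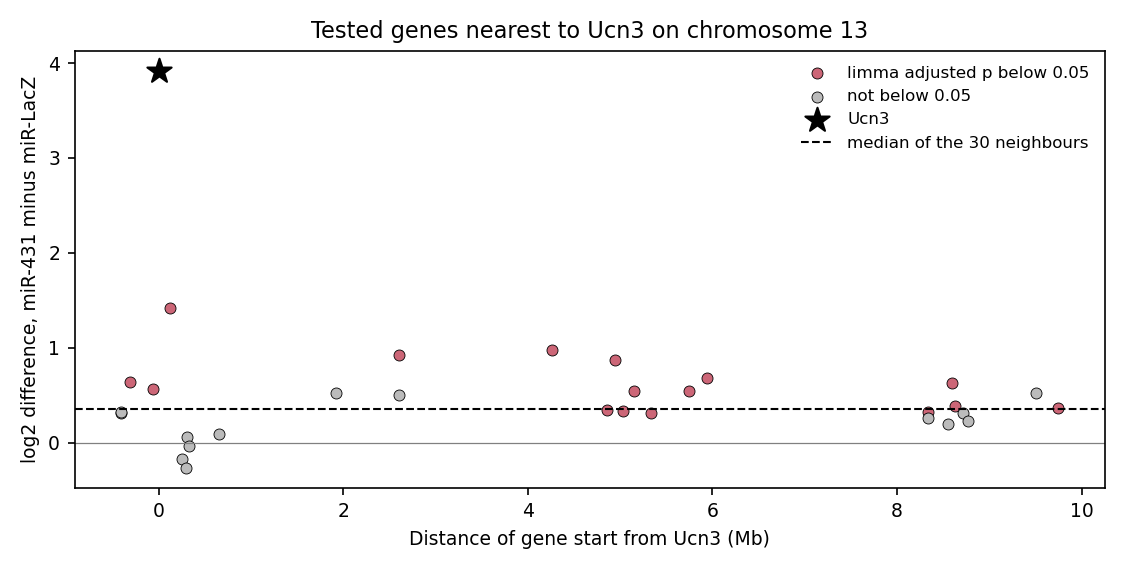
Log2 difference (miR-431 minus miR-LacZ) of Ucn3 (star, 3.92) and of the 30 tested genes nearest to it, against the distance of their starts in Mb; red points passed a limma adjusted p below 0.05 and grey points did not. The neighbours run from −0.27 to 1.42 with a median of 0.36 (dashed line).

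The 30 tested neighbours of Crhr1 had a median of −0.18, with 1 up and 6 down, and with the running median removed Crhr1 stood at −0.53. The neighbours of Crhr2 had a median of 0.10, with 5 up and 4 down, and Crhr2 stood at −1.55 without it. Around Ucn2 the median was 0.26, with 14 up and 1 down.

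The genes with the profile most like that of Ucn3 over the 8 libraries were Gpr142, Rec8, Ptprt, Eef1a2 and Apoe. Likeness was the root-mean-square difference between mean-centred log2(FPKM + 1) values, which was 0.522 for Gpr142, a receptor for aromatic amino acids in islets, 0.551 for the meiotic cohesin gene Rec8, 0.640 for the receptor phosphatase gene Ptprt, 0.651 for the translation factor gene Eef1a2 and 0.715 for the apolipoprotein gene Apoe. All 5 were higher in every miR-431 library than in any control. Within the controls they differed. In miR-LacZ 4, the library with the least Ucn3, Gpr142, Ptprt and Apoe (4.71 FPKM, beside 11.8 to 21.8 FPKM) were at their lowest. Eef1a2 was at its highest there (2.38 FPKM, beside 1.06 to 2.04 FPKM). Rec8 and Gpr142 were near 0 in the controls (0.0129 to 0.0710 and 0.0861 to 0.305 FPKM), so their order there says little. A profile with a jump between the groups sits close to any other with a jump of like size, so the likeness is a description.

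Among other receptors of the class B1 family, to which Crhr1 and Crhr2 belong, 4 of the 5 that were tested rose. Of 13 such genes in all, 8 were too low to be tested, and 0 fell by limma (0 also at an unadjusted p below 0.05; median 0.60). Vipr2, a receptor for the peptides VIP and PACAP, stood at 2.88 to 3.07 FPKM in miR-LacZ and 4.20 to 9.49 FPKM in miR-431 (log2 difference 0.84, limma adjusted p = 0.00768). Vipr1 rose from 6.72 ± 1.28 to 10.7 ± 1.58 FPKM (0.60, limma adjusted p = 0.0103). Gipr, the receptor of the incretin GIP, rose from 22.2 ± 6.84 to 36.3 ± 7.52 FPKM (0.71, limma adjusted p = 0.0299), with overlapping groups. Adcyap1r1, the PACAP receptor, which is the second tested gene after Crhr2 on chromosome 6, rose from 0.654 ± 0.387 to 1.40 ± 0.288 FPKM (0.56, limma adjusted p = 0.0304). Of the controls, only miR-LacZ 1 held it at 1 FPKM or more. Glp1r, the receptor of the incretin GLP-1 and the most abundant of them, was at 178 ± 30.96 FPKM in miR-LacZ and 148 ± 27.5 FPKM in miR-431 (−0.26, limma adjusted p = 0.254).

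Some of these calls were near the threshold. Leaving out 1 library left 2 or 3 of the 4 calls. That of Gipr ended without miR-LacZ 1, 2 or 4 or miR-431 6, 7 or 8, and without libraries 1 and 5 together, where its difference was between 0.54 and 0.81. That of Adcyap1r1 ended without miR-LacZ 3 or 4 or miR-431 5, 6 or 8, where its difference was between 0.45 and 0.60. With the running median of neighbouring genes removed, Vipr1 stood at 0.26 (limma adjusted p = 0.260) and Glp1r passed downward (−0.47, limma adjusted p = 0.0435). Of 14 peptide ligands of the family, 5 were tested and 0 rose or fell by limma (0 also at an unadjusted p below 0.05).

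A list of 37 genes covered cAMP, the signal both receptors share. Besides genes that make or read cAMP, it held those for inhibitory G protein subunits, arrestins and receptor kinases. Of the 37, 28 were tested, of which 6 rose and 1 fell (median 0.00). At 7 of 28, their share was no more than the 29.3% of all tested genes. The rises included Gnai1 and Gnai2, genes for inhibitory subunits that were named after their values were seen (0.36 and 0.32, limma adjusted p = 0.0101 and 0.0204). Gnai2 lost its call without miR-431 6 or 8, without libraries 1 and 5 together, and with the running median removed. The fall was that of Adcy1, a calmodulin-stimulated adenylyl cyclase, which stood at 14.4, 10.3, 11.998 and 14.1 FPKM in miR-LacZ and at 0.573, 0.524, 0.945 and 0.436 FPKM in miR-431 (log2 difference −3.08, limma adjusted p = 6.49e-07). Adcy2, another cyclase, rose from 0.266 ± 0.160 to 1.77 ± 0.451 FPKM (1.12, limma adjusted p = 0.000385). Adcy1 entered the test through miR-LacZ alone, and Adcy2 through miR-431 alone. Each could therefore be called in its own direction only. Prkacb, a catalytic subunit of protein kinase A, rose from 43.5 ± 11.5 to 75.8 ± 15.4 FPKM (0.80, limma adjusted p = 0.00933). Crtc2, a coactivator of the cAMP-responsive factor CREB, rose from 16.9 ± 1.39 to 23.8 ± 1.98 FPKM (0.47, limma adjusted p = 0.00430), but stood at 0.20 with the running median removed (limma adjusted p = 0.121). Gnas, which encodes the Gs alpha subunit, was at 5535 ± 738 FPKM in miR-LacZ and 5001 ± 800 FPKM in miR-431 (limma adjusted p = 0.602).

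Of 15 phosphodiesterase genes, whose products break down cyclic nucleotides, 9 were tested, and 1 rose and 1 fell (median 0.01). Pde4d rose by 0.50 (limma adjusted p = 0.00926). Pde1c fell by 0.70 on the log2 scale (limma adjusted p = 0.00603).

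Among 16 genes that cAMP and CREB induce in many cells, 13 were tested, and 5 rose and 0 fell by limma (6 and 0 at an unadjusted p below 0.05; median 0.32). Nr4a1, an orphan nuclear receptor gene, stood at 1.09, 1.26, 1.01 and 2.23 FPKM in miR-LacZ and at 7.76, 10.95, 2.67 and 17.6 FPKM in miR-431 (log2 difference 1.97, limma adjusted p = 0.00597). Sik1, a kinase that restrains CREB coactivators, rose from 0.924 ± 0.268 to 4.03 ± 2.06 FPKM (1.30, limma adjusted p = 0.00560). In both genes miR-431 7 was the lowest of its group, so the library with the most Ucn3 was low in these. Crem, a CREB family gene, rose from 2.86 ± 0.601 to 6.31 ± 2.24 FPKM (0.89, limma adjusted p = 0.00771). Nr4a2 rose by 0.80 (limma adjusted p = 0.0417), with overlapping groups, a call that ended without miR-LacZ 2, 3 or 4, without miR-431 5, 6 or 8, and without libraries 1 and 5 together. The fifth, Ppargc1a, a metabolic coactivator gene named after its value was seen, rose from 0.444 ± 0.0863 to 1.36 ± 0.315 FPKM (0.70, limma adjusted p = 0.00174). Ucn, which holds the cAMP response element shown above, was at 0 in 7 of the same 8 libraries. The 5 calls in this list were 38.5% of its 13 tested genes, beside 29.3% of all tested genes. Ppargc1a was below 1 FPKM in every control, entered the test through miR-431 alone and could count only as a rise. Sik1 reached 1 FPKM in miR-LacZ 4 alone among the controls. Leaving out 1 library left 3 to 5 of these calls, and leaving out libraries 1 and 5 left 4. Over all settings 1 to 6 genes of the list rose.

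**Figure D4:**
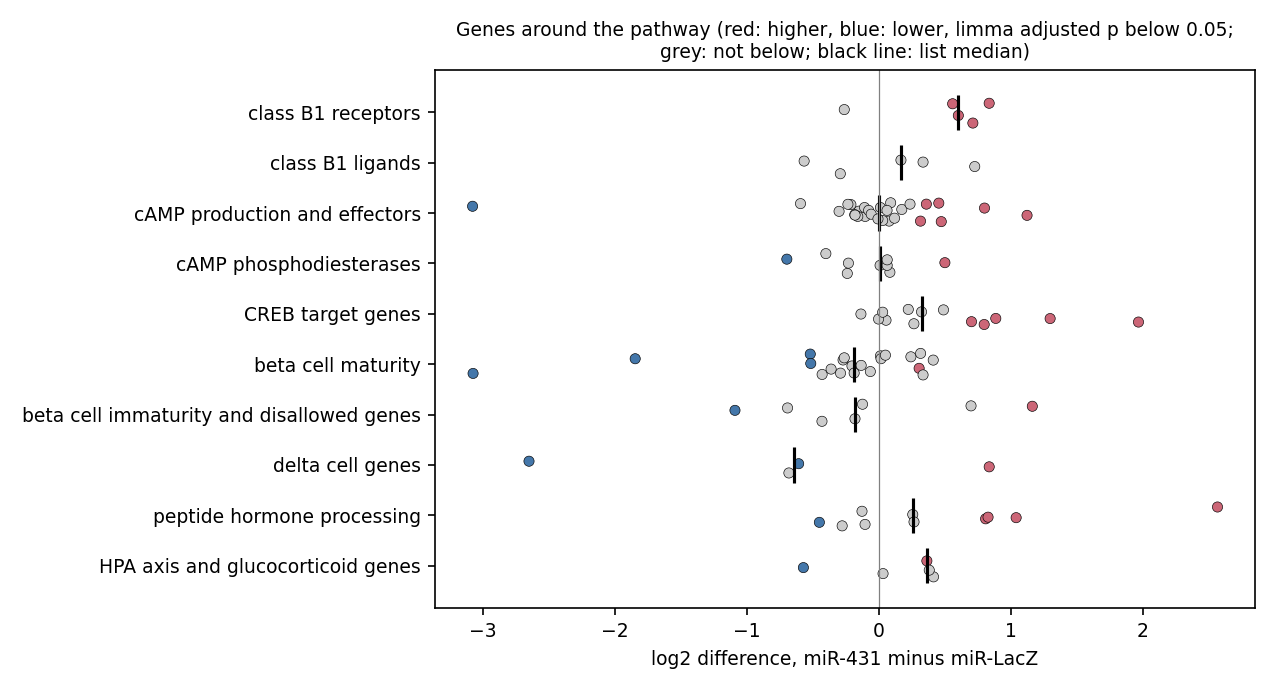
Log2 difference (miR-431 minus miR-LacZ) of each tested gene in 10 lists around the pathway, with red for higher and blue for lower at a limma adjusted p below 0.05, grey for the rest and a black line at each list's median. The class B1 list leaves out Crhr1 and Crhr2, which were both lower in miR-431. It holds 4 red points and no blue one among 5 tested genes. CREB target genes hold 5 red points and no blue one among 13, which is 38.5% beside 29.3% of all tested genes. One of the red points, Ppargc1a, entered the test through miR-431 alone. The cAMP list has a median of 0.00.

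Urocortin 3 needs its precursor cut and its end amidated. Of 11 genes for such steps, 10 were tested, and 4 rose and 1 fell (median 0.26). Pam, which encodes the enzyme that amidates peptide hormones, stood at 44.5, 48.3, 54.7 and 42.9 FPKM in miR-LacZ and at 74.9, 91.1, 78.5 and 96.9 FPKM in miR-431 (log2 difference 0.83, limma adjusted p = 0.000585). Scg5, the chaperone of the convertase PCSK2, rose from 158 ± 43.8 to 321 ± 61.4 FPKM (1.04, limma adjusted p = 0.00480). Pcsk1n, which encodes an inhibitor of PCSK1, rose from 138 ± 8.82 to 249 ± 59.1 FPKM (0.81, limma adjusted p = 0.00550). Qpct, which encodes an enzyme that forms pyroglutamate at peptide ends, rose from 0.219 ± 0.119 to 6.25 ± 1.05 FPKM (2.57, limma adjusted p = 1.62e-06). Qpct entered the test through miR-431 alone and could count only as a rise. The fall, named after its value was seen, was that of the convertase gene Pcsk2, from 920 ± 63.4 to 674 ± 61.8 FPKM (−0.45, limma adjusted p = 0.0187). It ended without miR-431 6 or 8, without libraries 1 and 5 together (0 fell there), with quantile normalization and with the running median removed.

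Of 21 other genes of mature beta cells, all tested, 1 rose and 4 fell (median −0.19). That is 23.8% of them, no more than the 29.3% of all tested genes, and leaving out 1 library left 3 to 5 falls. Sytl4, a granule docking gene, fell from 242 ± 74.8 to 65.5 ± 14.2 FPKM (log2 difference −1.85, limma adjusted p = 0.000276). Ins1 and the transcription factor genes Nkx6-1 and Pdx1 fell by 3.07, 0.52 and 0.52. Pdx1 no longer passed when miR-LacZ 2 or miR-431 5 was left out, or with the running median removed. Within the controls, miR-LacZ 4 had the least Ucn3 and the most Ins1 (5291 FPKM, beside 2063 to 3326 FPKM in the other 3). Ins1 and Ins2 are closely related copies between which reads can be split, so neither value is exact. Of 14 genes of immature beta cells or low in mature ones, 7 were tested, and 1 rose and 1 fell (median −0.18), namely Oat at 1.16 and Pdgfra at −1.09. Pdgfra entered the test through miR-LacZ alone and could count only as a fall.

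Delta cells, the islet cells known for CRHR2, were looked for by their markers. Sst, the somatostatin gene that defines them, stood at 0.588, 1.45, 1.71 and 1.41 FPKM in miR-LacZ and at 0.260, 0.357, 0.0720 and 0.325 FPKM in miR-431, too low to be tested. It was lower in every miR-431 library than in any control. The share of genes without overlap was taken over tested genes only, so untested genes of this list have no background for it. Hhex, a transcription factor gene of delta cells, was at 0.0773 ± 0.0617 and 0.0179 ± 0.0265 FPKM, and Ghsr, the ghrelin receptor gene, at 0.0434 ± 0.0176 and 0.00971 ± 0.00763 FPKM. Of the 11 delta cell genes listed, 4 were tested, and 1 rose and 2 fell (median −0.64), with 3 falls without libraries 1 and 5. The 4 were Rbp4, Sstr3, Sstr5 and Pcp4. Sst, Hhex and Ghsr were too low to enter this count. The summed FPKM of the list ran from 700 to 1072 in miR-LacZ and from 209 to 394 in miR-431, and no gene of it was at 0 in all 8 libraries. Of that sum, 509 to 799 in miR-LacZ and 83.2 to 152 in miR-431 was Rbp4, a retinol carrier gene also found in other cells, which fell from 677 ± 134.3 to 108 ± 30.98 FPKM (−2.65, limma adjusted p = 2.23e-05). Among somatostatin receptors, Sstr3 rose by 0.84 and Sstr5 fell by 0.61. Sstr1, also too low to be tested, went the other way from Sst. It stood at 0.0742 ± 0.0285 FPKM in miR-LacZ and 0.370 ± 0.0795 FPKM in miR-431, without overlap. Sstr2, Sstr4 and Lepr, the other untested genes of the list, overlapped between the groups. The part of any delta-like cells in the level of Crhr2 was not tested.

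Genes of the pituitary and adrenal axis that CRH drives in the body were mostly too low to test. Of 16, 5 were tested, and 1 rose and 1 fell (median 0.36). Pomc, the precursor of ACTH, stood at 7.14, 8.95, 7.53 and 8.52 FPKM in miR-LacZ and at 3.79, 5.62, 5.10 and 5.97 FPKM in miR-431, without overlap (log2 difference −0.57, limma adjusted p = 0.00860). Nr3c1, the glucocorticoid receptor gene, rose from 19.4 ± 2.88 to 25.1 ± 2.996 FPKM (0.36, limma adjusted p = 0.0453), a call that ended without miR-LacZ 2, 3 or 4 or miR-431 5, 6 or 8, and with the running median removed.

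Over the 10 lists of the pathway and the islet, 105 of 166 genes were tested, of which 24 rose and 11 fell (33.3%, beside 29.3% of all tested genes), with a median of 0.03. Without libraries 1 and 5 the counts were 21 and 13. Markers of acinar, fibroblast, endothelial and leukocyte cells were low, and those of duct and neuronal cells were not. The summed FPKM was 1.14 to 3.22 in miR-LacZ and 0.262 to 0.605 in miR-431 for acinar markers, 1.94 to 3.20 and 0.715 to 1.06 for fibroblast markers, 0.621 to 0.822 and 1.47 to 2.92 for endothelial markers, and 0.854 to 1.35 and 0.851 to 1.79 for leukocyte markers. For neuronal and glial markers it was 307 to 441 and 253 to 326, for duct markers 78.7 to 133 and 90.2 to 197 (nearly all of it Krt7, named after its value was seen, at 78.2 to 132 and 89.6 to 197), and for alpha, PP and epsilon cell markers 584 to 915 and 801 to 1633. Of the markers tested, Cela1 (acinar), Pdgfra (fibroblast) and Nefl (neuronal) fell, Plvap (endothelial) and Irx1, Irx2 and Ttr (alpha, PP and epsilon list) rose, and 0 changed by limma among the duct and leukocyte markers, 1 tested in each list (0 also at an unadjusted p below 0.05). Cela1 and Pdgfra entered the test through miR-LacZ alone, and Plvap through miR-431 alone. Ttr lost its call without miR-LacZ 1, 2 or 4, without miR-431 6 or 8, without libraries 1 and 5 together, and with the running median removed. The part of such cells in the results above was not tested.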

How the data were processed

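RNA of 8 libraries was profiled from column-purified total RNA with TruSeq libraries and paired 51 base reads, per the labels' protocols. Tools listed in the submitters' processing notes, without their roles, are Cufflinks 2.1.1, TopHat2 2.0.11, cutadapt and CASAVA 1.8.2, on mm9. The authors deposited FPKM for 23309 genes; the 75th percentile was 14.5 to 14.7 in every library, and no count is given. Whether strand was used is not said.

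Genes that reached 1 FPKM in 4 or more libraries were compared with limma 3.58.1 in R 4.3.3 (mean-variance trend, no covariate) on log2(FPKM + 1), with Benjamini-Hochberg adjustment over all 11807 tested genes and a threshold of 0.05. The test was checked on simulated data. Members below that level were fitted without the filter. Named are the members, up to 4 called genes per list with the largest differences, the 5 nearest profiles, the nearest neighbours of Ucn3, and genes marked as named later. Members and lists were chosen with earlier results of these data known. Seeds were searched in GENCODE M21 3′ UTRs (sequence only), for 10750 of the tested genes. Python 3.11.15, pandas 2.3.3, numpy 2.4.6 and matplotlib 3.10.9 did the rest.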

Additional observations from a re-analysis of the deposited data

Results flagged for a closer look

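In 4 cases 1 library lay far from the other 3 of its group in a member gene, all at levels below 0.3 FPKM: Ucn in miR-431 7 (0.0649 FPKM beside 0), Ucn2 in miR-LacZ 4 (0.193 FPKM), Crhbp in miR-LacZ 4 (0.0175 FPKM) and Crhbp in miR-431 8 (0.0355 FPKM). The measure was the gap to the nearest library over the range of the group; Dixon's 95% limit for groups of 4 was passed. That limit flags about 1 in 20 groups of normally spread values, a rate that need not hold for values this near 0. For Ucn, with 0 in the other 3 libraries, any value above 0 would have been flagged.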

How the results depend on the processing

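In 19 alternative settings Ucn3 stayed higher and Crhr1 and Crhr2 lower in miR-431 wherever they were tested (Crhr2 was below a 5 FPKM filter). The difference of Ucn3 was 4.73 with a pseudocount of 0.1 and 4.88 with 0.01 (Crhr2 −2.03 and −2.11), and 3.595 to 4.13 with 1 library left out. Crhr1 ranged from −0.83 to −0.65 and Crhr2 from −1.69 to −1.37 with 1 library left out. With 1 library left out, 2310 to 3235 genes were called instead of 3454, with 1220 to 1753 higher and 1067 (without miR-LacZ 2) to 1482 lower, and 26 to 34 of the 105 tested list genes, 16 to 24 higher and 8 to 12 lower. With the running median removed, 2292 genes were called, 1045 of them lower. With a 5 FPKM filter, which tests fewer genes, 15 list genes were higher. Scaling every library to the same sum put the median of all genes at −0.03. With a covariate for libraries 1 and 5, 4298 genes and 43 list genes were called. Of the 35 called list genes, 24 kept their call in every setting they were tested in, 11 lost it in at least 1 (Crtc2 and Vipr1 with the running median removed only), and 0 reversed. With no filter on low values the calls of Adcyap1r1, Gipr, Nr4a2, Nr3c1, Pdx1, Dab2ip, Irx1 and Ttr ended, with equal sums those of Gnai1, Gnai2, Nkx2-2, Nr4a2 and Nr3c1, and with quantile normalization those of Nr3c1 and Pcsk2. Ins2, not called in the main test (−0.43), passed with quantile normalization (−1.14), and the cause was not tested. Adcy1 and other genes above 1 FPKM in 1 group only can miss the filter, and so the test, when a library is left out. No paired analysis was possible because the groups share no replicate numbers; the covariate sets 2 libraries against 6 and pairs none. Without read counts, no limit from depth can be given for Ucn, Ucn2, Crh and Crhbp.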
